A study of Mus musculus with 2 samples.

Results

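The nuclear-encoded genes of the mitochondrial respiratory chain and the ATP synthase were described in sorted immune cells of the mouse small intestine. Members were all genes whose symbols start with Nduf, Sdha to Sdhd, Uqcr, Cox4 to Cox8 or Atp5 and that had at least 200 unique molecular identifiers (UMIs, each counting 1 captured RNA molecule) over both deposited matrices. Of 32285 genes listed, 98 had such a symbol and 91 of these were members. They comprised 45 genes of complex I, 8 of complex II, 8 of complex III, 13 of complex IV and 17 of complex V, and 13 mitochondrially encoded protein genes (symbols starting with mt-) were set beside them. The 2 libraries were made from Il23r-eGFP mice, in which green fluorescent protein marks cells that express the interleukin-23 receptor. Leukocytes of the small intestine, without Peyer's patches, were sorted as live eGFP+ cells. In 1 library the cells were unstimulated, and in the other they were given recombinant mouse IL-23 for 2 hours. The labels do not give the age, sex or number of the mice or the promoter details of the reporter, and the time in culture of the unstimulated cells is not given in the sources used here. With 1 library per group no difference had a replicate check and no test was made. The intervals given are exact 95% intervals for counting error only, and PCR copies are removed only as far as UMIs do so.

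The respiratory chain sits in the inner mitochondrial membrane. Complex I (NADH dehydrogenase) and complex II (succinate dehydrogenase) pass electrons to ubiquinone, complex III (cytochrome bc1) passes them to cytochrome c, and complex IV (cytochrome c oxidase) passes them to oxygen. Complexes I, III and IV pump protons, and complex V, the ATP synthase, uses the proton gradient to make ATP. All of these except complex II combine nuclear-encoded subunits, made in the cytosol and imported, with a few subunits encoded by mitochondrial DNA. In lymphocytes the chain supports both ATP production and the supply of building blocks for growth. Innate lymphoid cells of group 3 and some T cells of the gut carry the IL-23 receptor and release interleukin-22 and related cytokines when IL-23 is present.

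Promoter windows of members were examined because nuclear respiratory genes are textbook targets of the factors NRF1, GABPA and YY1. RefSeq windows of 300 bases on GRCm38.p6, from 250 bases before to 50 after the annotated start, were matched by symbol or synonym for 78 of the 91 members. The palindromic motif of NRF1, searched on both strands and spelled by the capitals in the lines that follow, stood in the windows of 7 of these 78 members (8.97%), against 1.07% of all 27025 genes with a window and 2.60% of the 8015 measured ones. The 7 matches are shown here as 30 bases of the gene's strand from 5′ to 3′, with the motif in capitals, because Atp5k, Ndufaf4 and Ndufaf5 among them are described further on.
Cox6a1, chr5:115349101-115349130, minus strand: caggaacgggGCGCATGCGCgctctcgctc
Atp5g2, chr15:102671070-102671099, minus strand: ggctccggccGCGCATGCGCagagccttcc
Atp5k, chr5:108434430-108434459, minus strand: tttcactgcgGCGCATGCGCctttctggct
Ndufa11, chr17:56717692-56717721, plus strand: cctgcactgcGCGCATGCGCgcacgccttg
Uqcrc1, chr9:108936668-108936697, plus strand: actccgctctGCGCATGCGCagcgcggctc
Ndufaf4, chr4:24897960-24897989, plus strand: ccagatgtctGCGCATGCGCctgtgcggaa
Ndufaf5, chr2:140170652-140170681, plus strand: agtcccgttgGCGCATGCGCctaatagaaa
The match ended 152 bases before the annotated RefSeq start in Cox6a1, 103 before in Ndufaf4 and 50 before in Ndufa11. It ended 40 before in Atp5k and 32 before in Atp5g2. In Uqcrc1 and Ndufaf5 it lay after the start. These distances hold for RefSeq starts. Of 83 member windows, 58 had their last 50 bases in a GENCODE M21 transcript of the gene. The outermost GENCODE start is chr5:108434448 for Atp5k, inside the bases shown, and chr15:102672352 for Atp5g2, upstream of them.

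A long motif of YY1, searched on both strands and again spelled by the capitals, stood in 5 of the 78 windows (6.41%), against 0.755% of all genes and 2.17% of measured genes. All 5 belong to genes of complex I, which holds 40 of the 78 windows, and 1 of them, Ndufaf8, is an assembly factor. In each the match lay after the annotated RefSeq start on the gene's own strand. They are shown in the same form because they share both a complex and a place in the window.
Ndufs4, chr13:114388045-114388074, minus strand: gcgtttgcctacaggAAGATGGCGGCggtc
Ndufs6, chr13:73328433-73328462, minus strand: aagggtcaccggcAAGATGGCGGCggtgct
Ndufs7, chr10:80249464-80249493, plus strand: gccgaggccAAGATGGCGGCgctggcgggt
Ndufa9, chr6:126849095-126849124, minus strand: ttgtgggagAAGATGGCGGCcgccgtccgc
Ndufaf8, chr11:120098935-120098964, plus strand: gcagggcccAAGATGGCGGCgccctcgaga
The shorter form AANATGGCG, which can overlap the longer one, was found in 12 windows (15.4%, against 2.76% of all and 7.07% of measured genes). The ETS motif CCGGAAG, the kind that GABPA reads, was found in 22 (28.2%, against 9.93% and 23.1%). The cyclic AMP element TGACGTCA was found in 4 (5.13%, against 2.03% and 3.99%). A match is a run of letters in the reference and shows no binding. The median log2 ratio of members between the libraries was -0.03 with and -0.05 without the NRF1 motif. It was -0.03 with and -0.06 without the longer YY1 motif, and -0.03 and -0.07 for the shorter one. For the ETS motif it was -0.05 and -0.05, and for the cyclic AMP element -0.09 and -0.05. The groups with a motif hold 4 to 22 members, and a relation of motif and ratio was not tested.

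The deposited matrices held 11096 barcodes with 58443284 UMIs in the unstimulated and 10440 barcodes with 62291905 UMIs in the IL-23 library. Cells with at least 500 genes and at most 10% mt- UMIs were kept, 10790 and 9251 cells with a median of 4928 and 6087 UMIs. Barcodes shared by the 2 libraries numbered 29. Among kept cells, Ncr1 cells had no UMI of the 3 CD3 chain genes, at least 1 of Ncr1 and none of Ccr6 (1052 and 1258 cells), Ccr6 cells had the converse (1535 and 1464 cells) and Cd3e cells had at least 1 Cd3e UMI (495 and 430 cells). Their median depths were 5925.5 and 7286.5 UMIs for Ncr1 cells, 4995 and 6220 for Ccr6 cells and 6355 and 7421.5 for Cd3e cells. The summed level of 10 T cell markers was 3842 and 3376 CPM (UMIs scaled to a total of 1000000) in Cd3e cells, 732 and 558 in Ncr1 cells and 273 and 226 in Ccr6 cells, the last 2 with all 3 CD3 chains at 0 by the rule. All 9 markers of group 3 innate lymphoid cells were above 10 CPM in each class and library, Cd3e cells included, so this list does not set the classes apart. Of 6 B and plasma cell markers the sum was 1839 and 7.97 CPM in Ncr1 cells and 34.6 and 1730.5 CPM in Ccr6 cells. Cells with over 1% of UMIs from Igkc and Jchain numbered 9 and 2 among all kept cells and at most 1 in each class and library, and leaving them out moved no sum of the members beyond its counting interval.

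Pairs of values are given for the unstimulated library first and the IL-23 library second, with 95% counting intervals in parentheses, and a ratio is that of CPM in the IL-23 over the unstimulated library unless classes are named. Summed over the 91 members, the nuclear-encoded genes took 17013 CPM in the unstimulated and 16520 CPM in the IL-23 library, 1.70% and 1.65% of all UMIs. The ratio of IL-23 to unstimulated was 0.971 (0.968 to 0.974), and its direction depended on the scaling: the log2 ratio was -0.04 in CPM, 0.07 relative to the median of all 10271 measured genes (itself at -0.12) and 0.07 with the factors of edgeR's TMM method. The 86 cytosolic ribosomal protein genes, at 192076 and 189353 CPM a far more abundant group, stood at a ratio of 0.986 (0.985 to 0.987) and proteasome subunits at 0.945 (0.940 to 0.949). The nuclear-encoded chain as a whole was thus at close to the same level in both libraries. An average kept cell held 91.7 and 109.6 UMIs of the members, and the median cell gave 1.69% and 1.65% of its UMIs to them.

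By complex, CPM sums were 4389 (4372 to 4406) and 4202 (4186 to 4218) CPM for complex I, a ratio of 0.957 (0.952 to 0.963). Complex II stood at 409.7 (405 to 415) and 363 (358 to 368) CPM, a ratio of 0.886 (0.870 to 0.902), and was lower with IL-23 in CPM, relative to the all-gene median (log2 ratio -0.06) and without Il22 and mt- UMIs in the total (-0.14). This sum of 8 genes includes 4 assembly factors, which were at -0.26 relative to the all-gene median. The 4 subunits alone were at -0.11 in CPM and 0.009 relative to that median, so no direction is given for them. Complex III was at 1990.0 (1979 to 2001) and 1976 (1965 to 1987) CPM, a ratio of 0.993 (0.985 to 1.00). The ratio of complex III was close to 1. Complex IV was at 4832 (4814 to 4850.1) and 4875 (4857 to 4892) CPM (ratio 1.01 (1.00 to 1.01)) and complex V at 5393 (5374 to 5412) and 5104 (5086 to 5122) CPM (ratio 0.947 (0.942 to 0.951)). The sums of complexes I, III and V lay below 1 in CPM and above the median ratio of all genes, so no direction is given for them; complex IV was slightly above 1 on each of these scales. The complexes' shares of the total were nearly the same in both libraries: complex I took 25.8% and 25.4% of the members' UMIs, complex II 2.41% and 2.20%, complex III 11.7% and 11.96%, complex IV 28.4% and 29.5% and complex V 31.7% and 30.9%.

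**Figure D1:**
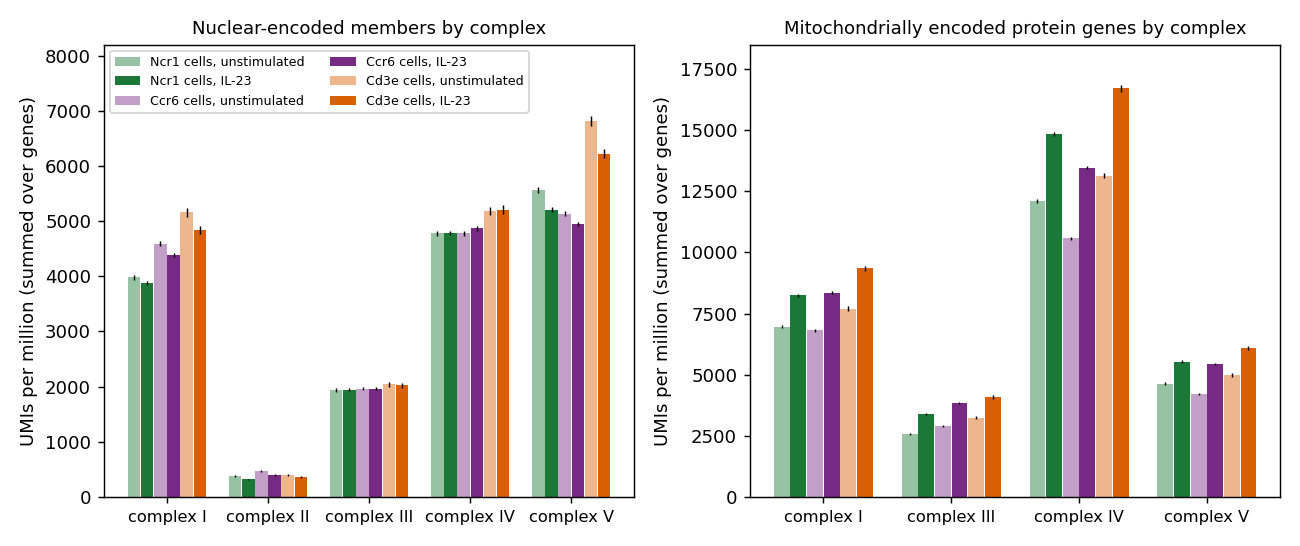
Summed level of the nuclear-encoded members (left) and of the mt- protein genes (right) by complex, in CPM, in Ncr1, Ccr6 and Cd3e cells of the unstimulated (light) and IL-23 (dark) library. Bars are sums over genes with exact Poisson 95% intervals; nuclear complex IV stood at 4777 and 4784 CPM in Ncr1 cells, while mt- complex IV stood at 12096 and 14836 CPM.

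The nuclear sum was close in Ncr1 and Ccr6 cells and higher in Cd3e cells. In Ncr1 cells it was 16642 (16545 to 16738) and 16138 (16059.5 to 16218) CPM, in Ccr6 cells 16936 (16851 to 17022) and 16568 (16492 to 16645) CPM and in Cd3e cells 19585 (19439 to 19731) and 18651 (18508 to 18795) CPM. The IL-23 ratio was 0.970 (0.962 to 0.977), 0.978 (0.972 to 0.985) and 0.952 (0.942 to 0.963) in the same order, below 1 in CPM in each class and above the class's median ratio over all genes in Ncr1 and Ccr6 cells. In each class the cells of both libraries overlapped widely in the share they gave to the members. The median was 1.66% and 1.63% per Ncr1 cell, 1.70% and 1.66% per Ccr6 cell and 1.98% and 1.90% per Cd3e cell.

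**Figure D2:**
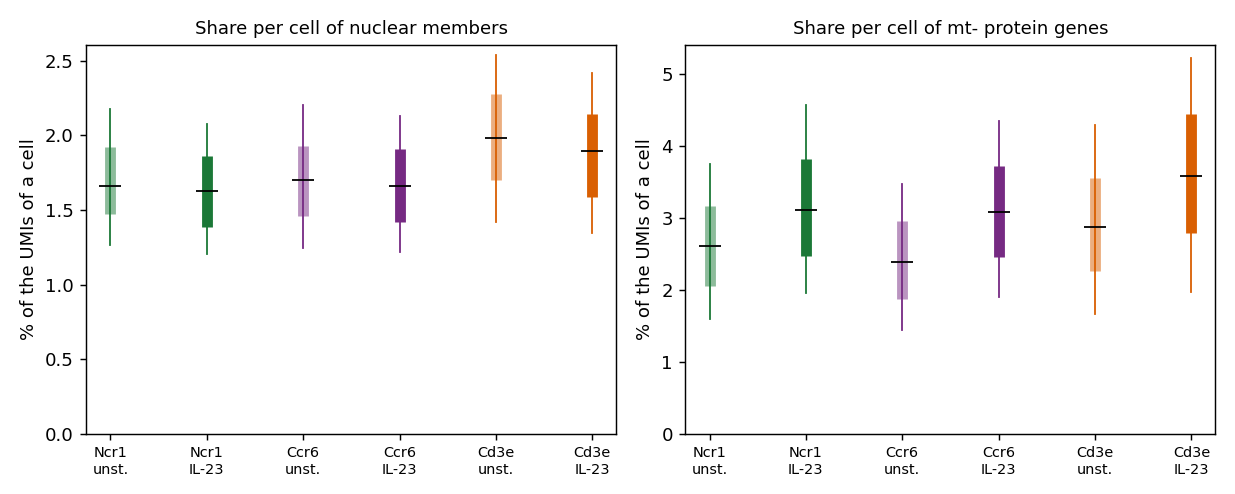
Share of a cell's UMIs (%) from the nuclear members (left) and the mt- protein genes (right), by class and library; the line is the median over cells, the box the middle 50% and the whisker the 10th to 90th percentile. Nuclear shares overlap between libraries (medians of 1.66% and 1.63% in Ncr1 cells) and mt- medians are higher with IL-23 (2.61% and 3.11% in Ncr1 cells).

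Single members were read against all measured genes. No member was at least 25% higher in the IL-23 library, where 7.99% of measured genes were, and 8 of 91 (8.79%) were at least 20% lower, the same fold inverted, where 19.8% were. At 1.5-fold 0 were higher (4.35% of all genes) and 2 lower (5.12%). The interquartile range of the log2 ratios was 0.13 for the members, against 0.30 for all genes and 0.24 for genes of at least 100 CPM. Like groups were similarly narrow, at 0.10 for cytosolic ribosomal protein genes, 0.15 for proteasome subunits and 0.15 for mitochondrial ribosomal protein genes. Of the 53 members with at least 100 CPM, 0 were at least 25% higher (8.46% of such genes) and 3 at least 20% lower (11.5%). The median log2 ratio was -0.05 for the members and -0.12 for all genes, and 66 of the 91 lay above the median of all genes. So did 74 of 86 cytosolic ribosomal protein genes, 34 of 48 proteasome subunits and 36 of 78 mitochondrial ribosomal protein genes. Relative to that median, 1 member, Ndufa8, was at least 25% higher (11.4% of genes) and 4, Ndufaf7, Sdhaf1, Atp5k and Ndufb1-ps, at least 20% lower (10.8%).

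**Figure D3:**
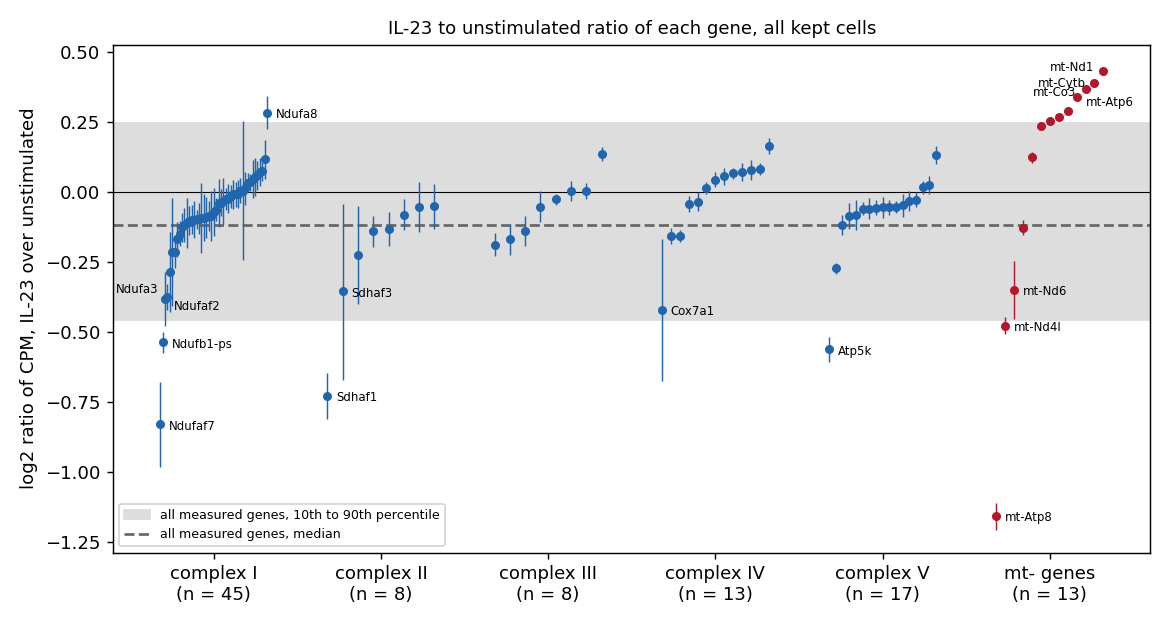
Log2 ratio of CPM, IL-23 over unstimulated library, of each member (blue) by complex and of the 13 mt- protein genes (red) in all kept cells, with exact 95% counting intervals; the grey band is the 10th to 90th percentile of all measured genes and the dashed line their median. Most members lie in the upper part of the grey band, and the members at least 20% lower are named, down to Ndufaf7 at -0.83.

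The core subunits of complex I carry its redox centres. Ndufv1, which binds NADH, was at 35.4 (33.9 to 37.0) and 32.9 (31.4 to 34.3) CPM, and its iron-sulfur partner Ndufv2 at 78.7 (76.5 to 81.1) and 79.5 (77.3 to 81.8) CPM. Ndufs1, which carries further iron-sulfur clusters, was at 36.7 (35.1 to 38.3) and 34.9 (33.5 to 36.5) CPM, and Ndufs8 at 40.0 (38.4 to 41.7) and 37.6 (36.1 to 39.1) CPM. The ratios of these 4 were 0.928 (0.872 to 0.987), 1.01 (0.970 to 1.05), 0.953 (0.897 to 1.01) and 0.940 (0.887 to 0.996). Ndufs7, which carries the iron-sulfur cluster next to the ubiquinone site, was at 104 (101.11 to 106) and 103 (100.80 to 106) CPM, a ratio of 0.996 (0.962 to 1.03). Ndufs3, a structural core subunit, was at 97.6 (95.04 to 100.1) and 91.9 (89.5 to 94.4) CPM, a ratio of 0.942 (0.908 to 0.978). These 6 core genes thus had ratios between 0.928 and 1.01.

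Accessory subunits surround this core. In the matrix arm, 10 genes summed to 1338 and 1304 CPM and 9 of the 10 had a ratio between 0.933 and 1.03. They were Ndufa2 (277 (273 to 281) and 284 (279.7 to 288) CPM), Ndufa5 (ratio 0.933), Ndufa6 (0.935), Ndufa7 (0.983), Ndufa9 (0.980), Ndufa12 (0.995), Ndufab1, the mitochondrial acyl carrier protein (0.995), Ndufs4 (1.00) and Ndufs6 (0.935). Ndufv3, the tenth, was at 83.6 and 72.2 CPM, a ratio of 0.863 (0.829 to 0.900).

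In the membrane arm 20 accessory genes summed to 2431 and 2312 CPM, and 2 of them were at least 20% lower. Ndufb1-ps, whose symbol has the suffix of a pseudogene and which the GENCODE M21 annotation types as a non-coding RNA of a bidirectional promoter, was at 228 (224 to 232) and 158 (154 to 161) CPM. It was 1.45-fold (1.41 to 1.49) lower in the IL-23 library. Ndufa3 was at 149 (146 to 152) and 115 (112 to 118) CPM, 1.30-fold (1.26 to 1.34) lower. Both were lower in each class. Ndufb1-ps stood at 213 and 141 CPM in Ncr1, 240.3 and 168 in Ccr6 and 316 and 233 in Cd3e cells, and Ndufa3 at 153 and 117, 135 and 100.96 and 219 and 166 CPM. At the other end, Ndufa8, one of the twin-cysteine subunits of the intermembrane space, had the highest ratio of all members, with 70.4 (68.2 to 72.6) and 85.7 (83.4 to 88.0) CPM, a ratio of 1.22 (1.17 to 1.27). In the classes Ndufa8 was at 69.4 and 85.8 CPM in Ncr1 cells, 75.6 and 80.3 in Ccr6 cells and 90.4 and 103 in Cd3e cells, so that the library difference was smaller in Ccr6 cells; the difference between classes was not tested. Ndufa13 (246 (242 to 249.6) and 259 (255 to 263) CPM) and Ndufb11 (238 (234 to 242) and 243 (239.6 to 247) CPM) were among the 3 complex I genes with the most UMIs. Of the remaining 15, Ndufb2 (ratio 1.08), Ndufs5 (1.05), Ndufb4 (1.04), Ndufc2 (1.03), Ndufa11 (0.990), Ndufb5 (0.984), Ndufb7 (0.975), Ndufa1 (0.958), Ndufb3 (0.940), Ndufb10 (0.937), Ndufc1 (0.934), Ndufb6 (0.922), Ndufb9 (0.917), Ndufb8 (0.903) and Ndufa10 (0.890) were closer to 1 than Ndufa3 and Ndufa8.

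Assembly factors, which build complex I and leave it, had lower sums with IL-23 on each of 3 scales. The 8 genes summed to 169.5 (166 to 173) and 146 (143 to 149) CPM, a ratio of 0.864 (0.839 to 0.889). The log2 ratio was -0.21 in CPM, -0.09 relative to the all-gene median and -0.17 without Il22 and mt- UMIs. This holds for the sum and not for each gene, as 4 of the 8 lay above the all-gene median. Ndufaf7, a methyltransferase of early complex I assembly, had the lowest ratio of all members. It was at 16.6 (15.6 to 17.7) and 9.34 (8.59 to 10.1) CPM, 1.78-fold (1.60 to 1.97) lower with IL-23, from 965 and 573 UMIs. Its CPM was 21.8 and 11.0 in Ncr1, 12.6 and 9.25 in Ccr6 and 20.0 and 11.7 in Cd3e cells, lower with IL-23 in all 3. Ndufaf2, which holds a late assembly intermediate, was at 34.3 (32.8 to 35.8) and 26.3 (25.1 to 27.7) CPM, 1.30-fold (1.22 to 1.39) lower. The others were less different: Ndufaf1 at a ratio of 0.821, Ndufaf6 at 0.863, Ndufaf3 at 0.938, Ndufaf4 at 0.943, Ndufaf8 at 0.974 and Ndufaf5 at 1.00 (0.847 to 1.19).

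Complex II is encoded wholly in the nucleus. Sdha, the flavoprotein that oxidises succinate, was at 92.2 (89.8 to 94.7) and 87.2 (84.9 to 89.6) CPM, and Sdhb, its iron-sulfur partner, at 93.2 (90.7 to 95.7) and 84.6 (82.3 to 86.9) CPM, with ratios of 0.946 (0.910 to 0.982) and 0.908 (0.874 to 0.943). The membrane anchors Sdhc and Sdhd were at 34.9 and 33.6 CPM (ratio 0.964) and at 78.9 (76.7 to 81.2) and 72.1 (70.0 to 74.3) CPM (ratio 0.914 (0.877 to 0.953)). The ratios of the 4 subunits thus ran from 0.908 to 0.964, while the 4 assembly factors summed to 111 (108 to 113) and 85.3 (83.04 to 87.7) CPM, a ratio of 0.772 (0.744 to 0.801). Most of that gap was 1 gene. Sdhaf1, which helps insert iron-sulfur clusters into Sdhb, was at 54.5 (52.6 to 56.4) and 32.9 (31.5 to 34.4) CPM, 1.66-fold (1.56 to 1.75) lower with IL-23. In Ncr1 cells Sdhaf1 was at 48.4 and 19.2 CPM, in Ccr6 cells at 77.7 and 50.8 and in Cd3e cells at 35.9 and 26.8, so the ratio was furthest from 1 in Ncr1 cells (2.52-fold (2.11 to 3.03) lower, against 1.53-fold (1.37 to 1.72) in Ccr6 cells). Sdhaf3, which acts with Sdhaf1, had few UMIs: 3.25 (2.80 to 3.75) and 2.54 (2.16 to 2.97) CPM, 1.28-fold (1.03 to 1.59) lower, from 189 and 156 UMIs. Sdhaf4 had a ratio of 0.856 and Sdhaf2, needed for the flavin of Sdha, a ratio of 0.966.

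In complex III, Uqcrfs1, the Rieske iron-sulfur protein, was at 164 (161 to 168) and 144 (141 to 147) CPM, a ratio of 0.879 (0.854 to 0.905). Uqcrh, the hinge protein at the cytochrome c1 site, was at 645 (638 to 651) and 634 (628 to 640.2) CPM, and Uqcrb, a ubiquinone-binding subunit, at 314 (309.9 to 319) and 316 (311 to 320.1) CPM. Their ratios of 0.983 (0.969 to 0.997) and 1.00 (0.984 to 1.02) were close to 1. Uqcrq, a small subunit next to cytochrome b, was at 377 (372 to 382) and 414 (409 to 419) CPM, a ratio of 1.10 (1.08 to 1.12), the third highest of all members and above 1 in each class (CPM of 354 and 389.6 in Ncr1, 379.8 and 417 in Ccr6 and 329 and 372 in Cd3e cells). The core proteins Uqcrc1 and Uqcrc2 had ratios of 0.890 and 0.909, and the small subunits Uqcr10 and Uqcr11 ratios of 1.00 and 0.965.

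Complex IV had 11 subunits, 1 tissue-restricted paralogue and 1 supercomplex factor among the members. Cox4i1, a regulatory subunit that binds ATP, was at 583 (577 to 589) and 589 (583 to 595) CPM, a ratio of 1.01 (0.996 to 1.03). Its paralogue Cox4i2, used in lung and under low oxygen, had 4 UMIs in all cells of both libraries. The same held for the other tissue paralogues: the common form carried the signal and the restricted form had little or none. Cox6a1 was at 254 (250.3 to 258) and 268 (263 to 272) CPM, while its muscle form Cox6a2 had 0 UMIs, which allows up to 0.0248 CPM. Cox6b1 was at 205 (201 to 209) and 217 (213 to 220.3) CPM, against 52 UMIs for the testis form Cox6b2. Cox8a was at 722 (715 to 729) and 757 (749.7 to 763) CPM, against 0 UMIs for Cox8b and 1 for Cox8c. Cox7b2 also had 0 UMIs, and Ndufa4l2 had 10, where its paralogue Ndufa4, now counted in complex IV, was at 269.6 (265 to 274) and 280.5 (276 to 285) CPM. None of these 7 low paralogues reached the 200 UMIs of the rule, and the members closest above it were Sdhaf3 (346), Cox7a1 (527) and Ndufaf5 (554).

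Cox7a1, the heart and muscle form, was the exception among the paralogues. It was at 5.06 (4.49 to 5.67) and 3.78 (3.31 to 4.30) CPM, from 294 and 232 UMIs, 1.34-fold (1.12 to 1.60) lower with IL-23. In Ncr1 cells it was at 8.87 and 3.94 CPM (61 and 39 UMIs), in Ccr6 cells at 3.58 and 2.496 and in Cd3e cells at 5.93 and 3.71. Its paralogue Cox7a2, the common form, went the other way, with 282 (278 to 286) and 316 (312 to 321) CPM, a ratio of 1.12 (1.10 to 1.14), the second highest of all members. Cox7a2 was above 1 in each class, at 260.3 and 303 CPM in Ncr1, 304 and 333 in Ccr6 and 285 and 317 in Cd3e cells. Cox7a2l, which joins complexes III and IV into supercomplexes, was at 312 (308 to 317) and 303 (299 to 308) CPM, a ratio of 0.971 (0.951 to 0.991). Of the other subunits, Cox6c was at 622 (615 to 628) and 659 (652 to 665) CPM and Cox7c at 645 (638 to 652) and 579 (573 to 585) CPM, with ratios of 1.06 (1.04 to 1.07) and 0.898 (0.885 to 0.911). Cox5a (0.898), Cox5b (1.03) and Cox7b (0.977) completed the complex.

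In complex V, the catalytic head subunits Atp5a1 and Atp5b were at 370.3 (365 to 375) and 356 (352 to 361) CPM and at 488 (482 to 494) and 469 (463 to 474) CPM, with ratios of 0.963 (0.945 to 0.981) and 0.960 (0.945 to 0.976). Atp5d, of the central stalk, was at 582 (576 to 589) and 562 (556 to 568) CPM, and Atp5c1 and Atp5e, its partners, had ratios of 0.946 and 0.963. These 5 genes had nearly the same ratio, from 0.946 to 0.965. The c-ring, which turns in the membrane, is made from 3 genes that encode the same mature protein. Atp5g1 was at 129 (126 to 132) and 122 (119 to 125) CPM, Atp5g2 at 225 (221 to 229) and 220.4 (217 to 224) CPM and Atp5g3 at 192 (189 to 196) and 185 (181 to 188) CPM, with ratios of 0.943 (0.913 to 0.974), 0.979 (0.956 to 1.00) and 0.960 (0.936 to 0.986). All 3 ratios were close to 1. The peripheral stalk genes Atp5f1 (1.02), Atp5h (0.982), Atp5j (0.963) and Atp5o (0.968) were also close to 1.

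The small membrane subunits of complex V, which help to join ATP synthases into dimers, varied more among themselves. Atp5k, subunit e, was at 162 (159 to 165) and 109.8 (107 to 112) CPM, 1.47-fold (1.43 to 1.52) lower with IL-23. Its CPM was 153 and 95.7 in Ncr1, 167 and 113 in Ccr6 and 250.2 and 163 in Cd3e cells, again lower in all 3 classes. Atp5md, also called DAPIT, was at 819 (812 to 827) and 679 (673 to 686) CPM, 1.21-fold (1.19 to 1.22) lower, with 995 and 788 CPM in Ncr1, 646 and 586 in Ccr6 and 1364 and 1026 in Cd3e cells. Atp5j2, subunit f, lay on the other side, at a ratio of 1.10 (1.07 to 1.12), while Atp5l, subunit g (447 (442 to 452) and 452 (447 to 458) CPM), had a ratio of 1.01 and Atp5mpl one of 0.922. Atp5k and its binding partner Atp5l thus had different ratios in the same libraries.

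Within the classes, 1 member was at least 25% higher in Ncr1 cells (11.9% of all genes), and this was Ndufaf5 with only 23 and 42 UMIs. In Ccr6 and Cd3e cells 0 were higher (8.76% and 13.8% of genes). In Ncr1 cells 9 members were at least 20% lower (27.3% of genes), in Ccr6 cells 9 (23.2%) and in Cd3e cells 11 (22.7%). Atp5k, Ndufa3, Ndufb1-ps, Ndufaf7, Sdhaf1 and Cox7a1 were lower in all 3 classes, 6 of 91 members, where 7.14% of 9320 genes measured in each class were, and 0 members were higher in all 3 (3.87%). The count of members lower in every class was therefore near the background. Cox7a1 had only 21 and 13 UMIs in Cd3e cells.

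Set beside the nuclear members, the 13 mt- protein genes summed to 26404 and 32511 CPM, a ratio of 1.23 (1.23 to 1.23). Their UMIs per UMI of the nuclear members, a ratio that no scaling of libraries can alter, went from 1.55 in the unstimulated to 1.97 in the IL-23 library, 1.27-fold (1.26 to 1.27). It was higher in every class: 1.58 and 1.98 in Ncr1 cells (1.26-fold), 1.45 and 1.88 in Ccr6 cells (1.30-fold) and 1.48 and 1.94 in Cd3e cells (1.31-fold). It was also higher in each complex with subunits of both genomes. In all kept cells it was 1.61 and 2.01 for complex I (1.246-fold), 1.44 and 1.90 for complex III (1.32-fold), 2.45 and 2.999 for complex IV (1.22-fold) and 0.855 and 1.11 for complex V (1.30-fold).

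**Figure D4:**
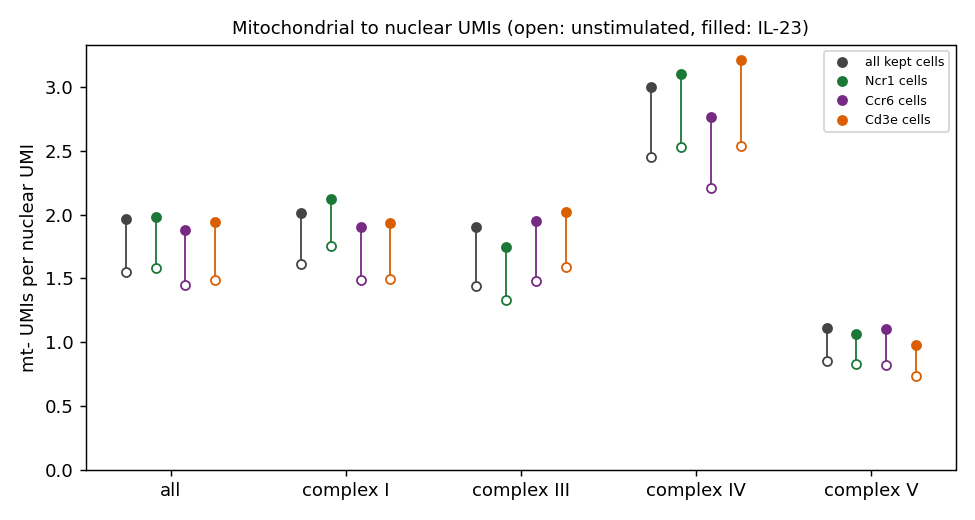
UMIs of the mt- protein genes per UMI of the nuclear members, over all complexes and by complex, in all kept cells and in each class (open: unstimulated, filled: IL-23). All 20 filled points lie above their open ones; over all complexes the value was 1.55 and 1.97 in all kept cells.

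The mt- genes did not all move one way. In complex I, mt-Nd1 was at 1932 (1921 to 1944) and 2610.2 (2597 to 2623) CPM, mt-Nd2 at 2192 (2179.8 to 2204) and 2613 (2599.8 to 2625) CPM and mt-Nd4 at 1563 (1553 to 1573) and 1912 (1901 to 1922) CPM, with ratios of 1.35 (1.34 to 1.36), 1.19 (1.18 to 1.20) and 1.22 (1.21 to 1.23). mt-Nd3 was at 643 (637 to 649.9) and 702 (695 to 708) CPM, a ratio of 1.09 (1.08 to 1.11). In the opposite direction, mt-Nd5 was at 367 (362 to 372) and 336 (331 to 341) CPM, mt-Nd4l at 352 (347 to 357) and 253 (249 to 257) CPM and mt-Nd6 at 29.3 (27.9 to 30.7) and 23.0 (21.8 to 24.3) CPM. Their ratios were 0.916 (0.899 to 0.934), 0.719 (0.704 to 0.734) and 0.785 (0.731 to 0.843), so 4 of the 7 complex I genes were higher and 3 lower. mt-Nd6 is the only one of the 13 on the other strand of the mitochondrial genome.

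In complex III mt-Cytb, cytochrome b, was at 2869 (2855 to 2883) and 3756 (3740.3 to 3771) CPM, a ratio of 1.31 (1.30 to 1.32). The catalytic subunits of complex IV, mt-Co1 and mt-Co2, were at 3381 (3367 to 3396) and 3981 (3965 to 3997) CPM and at 3378 (3363 to 3393) and 4072 (4056 to 4088) CPM, and mt-Co3 at 5085 (5066 to 5103) and 6567 (6547 to 6588) CPM. Their ratios were 1.18 (1.17 to 1.18), 1.21 (1.20 to 1.21) and 1.29 (1.29 to 1.30). In complex V mt-Atp6, the proton channel, was at 4425 (4408 to 4442) and 5603 (5584 to 5621) CPM, while mt-Atp8 was at 188 (184 to 191) and 84.3 (82.0 to 86.6) CPM, with ratios of 1.27 (1.26 to 1.27) and 0.449 (0.434 to 0.464). These 2 genes overlap on 1 transcript, as do mt-Nd4l and mt-Nd4, so how reads were divided between the partners bears on each value. In the classes mt-Atp8 was at 186 and 77.8 CPM in Ncr1, 182 and 87.4 in Ccr6 and 219 and 104 in Cd3e cells.

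Other measures differed between the libraries along with the mt- to nuclear ratio. The nuclear RNA Malat1 was at 33906 and 25151 CPM in all kept cells (32286 and 24902 in Ncr1, 34819 and 25620 in Ccr6 and 29523 and 22559 in Cd3e cells). Neat1, a far less abundant nuclear RNA, went the other way, at 118 and 201 CPM in all kept cells. It was at 136 and 249 CPM in Ncr1, 95.7 and 167 in Ccr6 and 184 and 212 in Cd3e cells. More barcodes of the IL-23 library exceeded 10% mt- UMIs (195 against 65), and more had fewer than 500 genes (994 against 241). With a limit of 5% mt- UMIs the log2 change of the mt- to nuclear ratio was 0.30, against 0.34 with 10%. The part of these differences in the mt- to nuclear ratio was not tested. Across cells the members' share of non-mt UMIs varied little with the mt- share: it was 17354 to 17679 CPM in unstimulated and 17080 to 17380 CPM in IL-23 cells in bins below 6% mt-, and 12190 and 12872 CPM in the bin from 6% to 10% (85 and 246 cells). Cells above 10%, which were left out, gave 6584 and 7210 CPM.

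Cd3e cells gave more of their UMIs to the nuclear-encoded chain than Ncr1 and Ccr6 cells together: 19585 against 16808 CPM in the unstimulated library and 18651 against 16363 CPM in the IL-23 library, 1.17 and 1.14-fold. This was so in CPM, relative to the median of all genes and without Il22 and mt- UMIs in the total. The ribosomal protein genes had ratios of 1.15 and 1.16 and the mt- protein genes of 1.15 and 1.15 in the same comparison, so a like difference was seen outside the chain. Cd3e cells are selected by a UMI and were the deepest class. The complexes were unequal. Complex V had the highest ratio (1.28 and 1.23), then complex I (1.19 and 1.17) and complex IV (1.08 and 1.08). Complex III was at 1.05 and 1.04 and flipped below the all-gene median in the IL-23 library, and complex II was at 0.913 and 1.00.

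Within complexes the roles also differed. The membrane-arm accessory subunits of complex I were at 1.26 and 1.27 in Cd3e cells over the others, while its core subunits were at 0.988 and 0.952. The small membrane subunits of complex V were at 1.46 and 1.38, with Atp5md highest in the unstimulated library (1.71) and Atp5k in the IL-23 library (1.56) and all 5 above 1, and the c-ring genes at 1.32 and 1.30, against 1.13 and 1.11 for the F1 head. Over single members, 27 of 91 (29.7%) were at least 25% higher in Cd3e cells in both libraries, where 25.7% of all genes were, and 4 (4.40%) at least 20% lower, where 19.0% were. The members' median log2 ratio was 0.22 in both libraries, against 0.02 and 0.10 for all genes. The share of members higher in Cd3e cells was near the background, and few were lower.

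At 1.5-fold, 10 members were higher in Cd3e cells in both libraries (15.3% of all genes) and 0 lower (11.3%). Atp5md was at 1364 against 798 CPM in the unstimulated library and 1026 against 682 CPM in the IL-23 library. Atp5k was at 250.2 against 161 CPM in the unstimulated library and 163 against 105 CPM in the IL-23 library, and the c-ring gene Atp5g1 at 197 against 127 CPM in the unstimulated library and 183 against 116 CPM in the IL-23 library. All 3 belong to the membrane sector of the ATP synthase. In complex I, Ndufb9 was at 168 against 107 CPM in the unstimulated library and 164 against 98.6 CPM in the IL-23 library, Ndufa1 at 234 against 156 CPM in the unstimulated library and 247 against 153 CPM in the IL-23 library and Ndufa3 at 219 against 143 CPM in the unstimulated library and 166 against 109 CPM in the IL-23 library. Ndufv3, of the NADH-binding module, was at 129 against 80.0 CPM in the unstimulated library and 109 against 71.4 CPM in the IL-23 library. These 4 accessory subunits were 1.51-fold to 1.66-fold higher. The other 3 are assembly factors at lower levels: Ndufaf8 at 61.3 against 34.7 CPM in the unstimulated library and 56.5 against 33.9 CPM in the IL-23 library, its partner Ndufaf5, which hydroxylates Ndufs7, at 9.32 against 3.98 CPM in the unstimulated library and 7.13 against 4.198 CPM in the IL-23 library, and Sdhaf4, which helps mature Sdha, at 19.5 against 9.74 CPM in the unstimulated library and 16.8 against 7.62 CPM in the IL-23 library. Ndufaf5 had 33 and 25 UMIs in Cd3e cells. The 4 members at least 20% lower in Cd3e cells were Sdhaf1, Ndufaf6, Ndufaf1 and Uqcrb, the last at 245 against 308 CPM in the unstimulated library and 236 against 313 CPM in the IL-23 library.

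**Figure D5:**
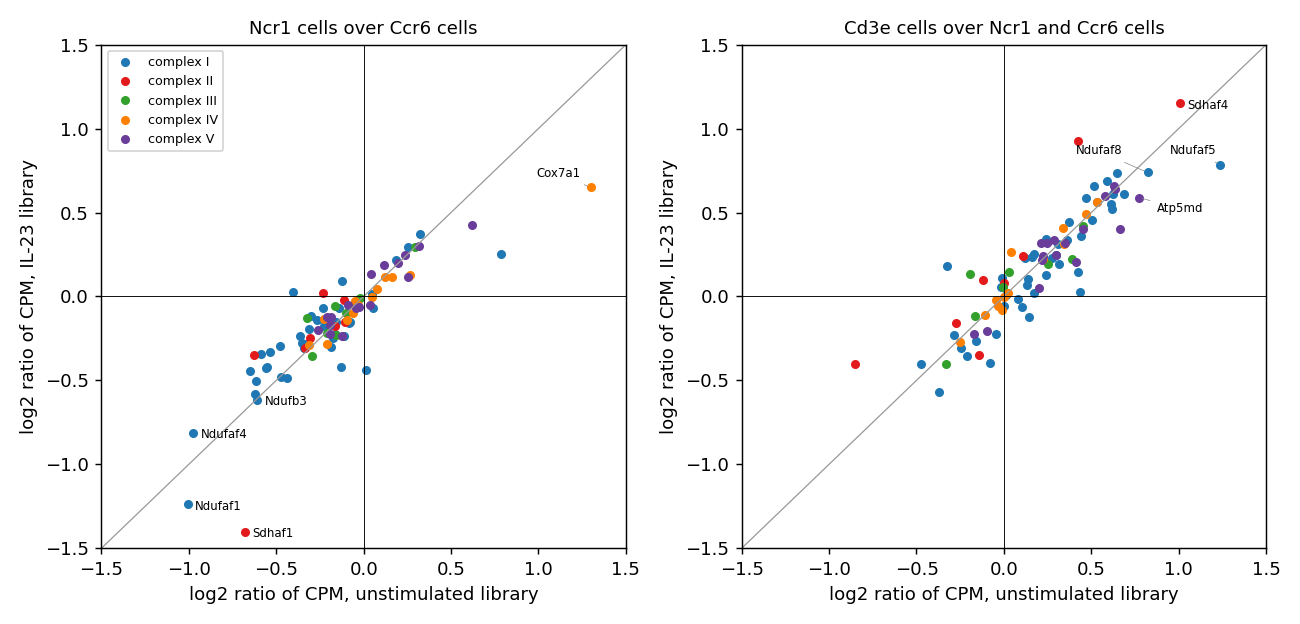
Log2 ratio of CPM of each member in Ncr1 over Ccr6 cells (left) and in Cd3e over Ncr1 and Ccr6 cells (right), in the unstimulated (horizontal) and the IL-23 library (vertical), coloured by complex; the diagonal marks equal ratios. Sdhaf1, Ndufaf1 and Ndufaf4 lie lowest on the left, and Sdhaf4 lies at 2.01-fold and 2.22-fold on the right.

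Ncr1 and Ccr6 cells had nearly the same total of the nuclear members in CPM, at ratios of 0.983 and 0.974, a direction that turned over relative to the all-gene median. The composition of the total differed. Complex I was lower in Ncr1 cells, at 3979.8 against 4587 CPM in the unstimulated library and 3884 against 4387 CPM in the IL-23 library, and its core subunits more so, at 370.4 against 507 CPM in the unstimulated library and 377 against 487 CPM in the IL-23 library, ratios of 0.730 and 0.773. Complex II was lower too, at ratios of 0.825 and 0.815. Complex V was higher, at 5565 against 5134 CPM in the unstimulated library and 5206 against 4951 CPM in the IL-23 library, mostly through 1 gene, Atp5md, at ratios of 1.54 and 1.35. Its group, the small membrane subunits, had ratios of 1.20 and 1.13, while Atp5k was lower in Ncr1 cells (0.917 and 0.848), Atp5mpl was at 0.969 and 0.952, Atp5j2 at 1.03 and 0.965 and Atp5l at 1.03 and 1.10. The directions of complexes I, II and V and of the complex I core held in both libraries and on all 3 scales, and complexes III and IV, at 0.984 and 0.989 and 0.999 and 0.982, did not hold a direction. The summed T cell markers were higher in Ncr1 than in Ccr6 cells, as given above, mostly through Trbc1 and Trbc2. Trbc1 was at 362 and 305 CPM in Ncr1 and 102 and 89.5 in Ccr6 cells, and Trbc2 at 321 and 212 and 144 and 109. Tcrg-C1 was higher too, while Lat was lower in Ncr1 cells (7.13 and 7.37 against 9.51 and 10.9 CPM). Trac, Trdc and Cd5 were at most 2.33 CPM in both classes. Their part in these ratios was not tested.

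Among single members, 3 were at least 25% higher in Ncr1 than in Ccr6 cells in both libraries (13.4% of all genes) and 14 at least 20% lower (23.3%). Higher were Ndufs4 at 136 against 109 CPM in the unstimulated library and 148 against 115 CPM in the IL-23 library, Atp5md at 995 against 646 CPM in the unstimulated library and 788 against 586 CPM in the IL-23 library, and Cox7a1 at 8.87 against 3.58 CPM in the unstimulated library and 3.94 against 2.496 CPM in the IL-23 library. Lower were the assembly factors Ndufaf1, Ndufaf2, Ndufaf3, Ndufaf4, Sdhaf1 and Sdhaf4 and the subunits Ndufab1, Ndufb3, Ndufc1, Ndufc2, Ndufs3, Ndufs7, Ndufv1 and Ndufv2. Of these 14, 12 are genes of complex I, which holds 45 of the 91 members. These 12 of 45 are to be read beside the 23.3% of all genes. At 1.5-fold 1 was higher, Cox7a1 (7.45% of genes), and 4 lower (11.9%). Cox7a1 had few UMIs, 61 and 39 in Ncr1 cells and 32 and 27 in Ccr6 cells. Ndufaf1, which with Ecsit and Acad9 builds the membrane arm, was at 9.60 against 19.3 CPM in the unstimulated library and 7.77 against 18.4 CPM in the IL-23 library, 2.01 and 2.36-fold lower in Ncr1 cells. Ndufaf4 was at 24.1 against 47.5 CPM in the unstimulated library and 23.1 against 40.7 CPM in the IL-23 library, 1.964 and 1.76-fold lower. Sdhaf1 was at 48.4 against 77.7 CPM in the unstimulated library and 19.2 against 50.8 CPM in the IL-23 library, 1.60 and 2.64-fold lower, and Ndufb3 at 40.9 against 62.4 CPM in the unstimulated library and 37.2 against 57.0 CPM in the IL-23 library, 1.53 and 1.53-fold lower. The mitochondrial ribosomal protein genes had ratios of 0.771 and 0.776 in the same comparison, further from 1 than the nuclear sum of the chain.

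Lists of related genes outside the symbol rule were set beside the members, with the same limits of 25% higher (7.99% of all measured genes) and 20% lower (19.8%). Cytochrome c (Cycs) was at 251 (247 to 255) and 274 (270.3 to 279) CPM and cytochrome c1 (Cyc1), the nuclear haem subunit of complex III, at 104 (100.98 to 106) and 100.81 (98.3 to 103) CPM, neither past these limits. Of 18 measured genes of the tricarboxylic acid cycle and the pyruvate step before it 0 were higher and 2 lower (Dlat and Suclg2), and their median log2 ratio was -0.16. Of 35 measured assembly factors outside the symbol rule 0 were higher and 7 lower, with a median of -0.17. The 7 were Coa6, Tmem126b, Atpaf1, Ecsit, Bcs1l, Acad9 and Uqcc3, a share near that of all genes. Of 17 genes of mitochondrial DNA expression 0 were higher and 2 lower (Twnk and Polg2, median -0.19). Of 21 carriers and channels 0 were higher and 1 lower (Timm44, median -0.11), and of 78 mitochondrial ribosomal protein genes 0 were higher and 6 lower (median -0.13). All of these medians are beside -0.12 for all genes.

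Among these lists the highest ratios were those of 2 regulators. Myc was at 5.78 (5.18 to 6.43) and 27.1 (25.8 to 28.4) CPM, a ratio of 4.68 (4.17 to 5.29), and Hif1a at 202 (198 to 205) and 329.7 (325 to 334) CPM, a ratio of 1.63 (1.60 to 1.67). Both were higher with IL-23 in each class: Myc at 7.13 and 40.6 CPM in Ncr1, 4.92 and 17.8 in Ccr6 and 11.0 and 47.9 in Cd3e cells, and Hif1a at 208 and 346, 166 and 256 and 423 and 704. The factors whose motifs were searched had ratios close to 1, with Nrf1 at 43.9 and 42.0 CPM, Gabpa at 29.96 and 27.3 CPM and Yy1 at 194 and 197 CPM. Esrra was 1.41-fold lower, at 11.3 and 8.05 CPM, and Tfam, which packs and transcribes mitochondrial DNA, was at 49.9 and 43.7 CPM. Of 11 measured regulators, 2 were at least 25% higher and 1 at least 20% lower, where 7.99% and 19.8% of all genes were.

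The members are short genes. On the GENCODE M21 annotation their median transcript length was 763 bases, against 2600 for all measured genes, and lengths ran from 321.5 bases (the median over the transcripts of Atp5k) to 4323. Across the 91 members length had a Spearman rho of -0.12 with the log2 ratio between libraries and of -0.31 with the ratio of Cd3e to Ncr1 and Ccr6 cells averaged over the libraries, and of -0.02 and -0.04 across all genes. Among genes of at least 100 CPM these values were 0.03 and -0.278 for 53 members and -0.08 and -0.195 for all 1653 such genes. The relation with the class ratio was thus also seen among other abundant genes. These are correlations across genes, which share libraries and are not independent. The 13 members up to 500 bases had a median of 0.48 for that averaged log2 ratio, against 0.23 for all 121 such genes. Of these 121 genes, 33.1% were at least 20% lower with IL-23, against 13.7% to 21.6% in the ranges of longer genes. Of the 13 members 3 were (23.1%), namely Atp5k, Ndufa3 and Cox7a1. In the longer ranges 1 of 31, 1 of 12, 0 of 15, 2 of 18 and 1 of 2 members were. The median log2 ratio between libraries was -0.06 for the 13 and -0.14 for the 121. A part of length in the library ratios was not tested. Of 90 protein-coding members, 23 (25.6%) had a protein-coding gene on the opposite strand that starts within 1000 bases upstream of their own start, against 11.4% of 9654 measured protein-coding genes. Pairs included Ndufa7 and the ribosomal gene Rps28 at 10 bases, Ndufb9 and Tatdn1 at 18, Sdha and Ccdc127 at 29, and Ndufaf7 and Cebpz at 70. Many of these short genes have processed copies elsewhere in the genome, and reads that such copies share may have been lost or divided in the deposited counts.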

How the data were processed

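Droplet single-cell RNA libraries were made with the 10x Genomics system from live eGFP+ leukocytes, 1 unstimulated and 1 given IL-23. The authors deposited UMI counts per gene and barcode, without normalization; per the submitters' processing notes the tool was Cell Ranger 3.1.0 with build mm10, and the matrices name cellranger 6.0.0, per the file headers. How reads shared by gene copies were counted is not given in the sources used here.

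Counts were summed over kept cells per library and class and divided by all their UMIs (CPM). Ratios had 0.5 UMI added to each sum. Genes with 200 UMIs over both matrices and 20 in the set were measured. CPM intervals are exact Poisson and ratio intervals exact conditional binomial intervals at 95%, for counting error only. The intervals were run on counts simulated from the Poisson model that they assume. Such a run checks the calculation and not the spread between cells or libraries. With 1 library per group, nothing was tested across libraries. Doublets were not removed; leaving out the deepest cells was an alternative. Free RNA was not removed.

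The members and lists were chosen with earlier results of these data known. Full values were given, by a fixed rule, for the 3 members of each complex with the most UMIs, the 3 highest and 3 lowest ratios, all members past the 25% limit, class ratios past 1.5-fold, paralogue sets, the catalytic core and the mt- genes. The values of 1 core gene are not reported here. UMIs count molecules, so CPM of different genes stand side by side without ranking. Gene positions and lengths came from GENCODE M21 on GRCm38, promoters from RefSeq on GRCm38.p6. Alternatives varied the cell limits, scaling (also edgeR 4.0.16 TMM factors, under R 4.3.3), cell weighting, thinning to 2000 UMIs, class rules and the member rule. Python 3.11.15, numpy 2.4.6, scipy 1.17.1, pandas 2.3.3 and matplotlib 3.10.9 were used.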

Additional observations from a re-analysis of the deposited data

How the results depend on the processing

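The log2 ratio of the nuclear sum, IL-23 over unstimulated, was -0.042 in all kept, -0.044 in Ncr1, -0.032 in Ccr6 and -0.070 in Cd3e cells. With TMM scaling it turned to 0.074, 0.090, 0.082 and 0.012 in the same order. Without Il22 and mt- UMIs in the total it was -0.0028, 0.0026, 0.0054 and -0.045. With every cell weighted equally it was -0.050 in all kept and -0.056 in Ncr1 cells, with thinning to 2000 UMIs -0.046 in Ccr6 cells, and with the stricter T cell receptor rule -0.0055 in Ncr1 and -0.018 in Ccr6 cells. The direction of the nuclear sum is thus set by the scaling, and 34 other values moved by less than their counting interval.

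The log2 change of the mt- to nuclear ratio (0.343, 0.330, 0.375 and 0.388 in the same order) was above 0 under every alternative run, from 0.267 to 0.443. With at most 5% mt- UMIs it was 0.298, 0.285, 0.346 and 0.322. Without an mt- limit it was 0.366 in all kept and 0.443 in Cd3e cells. With cells weighted equally it was 0.365, 0.344, 0.392 and 0.364. With thinning it was 0.404 in Ccr6 and 0.348 in Cd3e cells, without cells above 2 times the median depth 0.398 in Ccr6 cells, and with the stricter rule 0.267 in Ncr1 cells. That rule kept 132 and 201 Ncr1 cells of 1052 and 1258. The cause of these shifts was not tested.

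The count of members past the 25% or 20% limit was 8. It rose to 12 (1 higher and 11 lower) over every gene that matches the symbol prefixes, with no minimum of UMIs. It was 5 with TMM scaling (1 higher and 4 lower), 5 among members with at least 2000 UMIs, 2 at 1.5-fold, and 5 relative to the all-gene median, an alternative chosen after seeing the data. It was 8 without immunoglobulin-rich cells, also chosen after seeing the data. No paired analysis was possible because each group has 1 library, and for the same reason no replicate could be left out. Low counts limit Sdhaf3, Cox7a1, Ndufaf5 and Ndufaf6 most, and the Cd3e class, with 495 and 430 cells, has the widest intervals.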
